A study of Mus musculus with 6 samples.

Results

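The nuclear-encoded subunits of the mitochondrial respiratory chain are the proteins of complexes I to IV, cytochrome c and ATP synthase whose genes lie in the nucleus. They were taken from the deposited tables by gene symbol: the Nduf a, b, c, s and v series, Sdha to Sdhd, Uqcr, Cox4 to Cox8, Atp5, Cyc1 and Cycs, with assembly factors and pseudogene symbols left out. The rule found 89 of the 27378 listed genes: 41 of complex I, 4 of complex II, 9 of complex III, cytochrome c itself, 17 of complex IV and 17 of ATP synthase. RNA was sequenced from whole brains of wild-type male C57BL/6J mice in 2 groups of 3 libraries. PS brains came from mice given polystyrene nanoplastics through the nose for 28 days, and Control brains from mice that received sterile distilled water instead, also through the nose and for 28 days. The comparison asks how inhaled nanoplastic particles affect the brain, per the series' design text. The labels number the libraries 1 to 3 in each group and do not say that each is a separate animal, so p-values measure the spread between these libraries, which may be technical.

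The respiratory chain makes most of the ATP of a neuron. Complexes I and II pass electrons from NADH and succinate to ubiquinone, complex III passes them to cytochrome c and complex IV to oxygen. Complexes I, III and IV pump protons as they do so, and ATP synthase uses the proton gradient to make ATP. A small core of subunits is encoded in mitochondrial DNA, and the proteins described here are made in the cytosol and imported. Several complex IV subunits exist as a widely expressed isoform and a second one typical of heart, skeletal muscle, lung or testis. NRF1 and GABP, an ETS family factor, are textbook activators of many of these genes.

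Levels are FPKM, fragment numbers corrected for gene length and library size, so genes can be compared per length. The totals behind the values were 40033806, 40335590 and 40015627 reads in PS brains and 39694248, 39239183 and 39632748 reads in Control brains. The subunit genes took 1.2, 1.3 and 1.27% of reads in PS brains and 1.28, 1.12 and 1.3% in Control brains. One library, Control 2, stood apart for these genes, and the medians of the complexes and pathway lists are given with and without it, apart from mitochondrial carriers, given as counts, and genes of mitochondrial DNA, where another library stood apart. In whole tissue, fewer cells of a type and less RNA per cell cannot be told apart.

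Promoters are shown for the complex IV isoform genes with the largest differences described below and for widely expressed complex IV genes, to set both kinds of promoter side by side. The RefSeq promoter table, on GRCm38.p6, held 71 of the 89 genes. The 250 bases before the annotated start are printed 5′ to 3′ along the gene's strand, with every CG dinucleotide in capitals. The files were made on another build, so these coordinates apply to GRCm38.p6 only. Cox8b and Cox7a1 encode isoforms typical of heart and skeletal muscle in rodents, Cox8a and Cox7a2 are their widely expressed counterparts, and Cox6a1 is the widely expressed form of subunit VIa.
Cox8b: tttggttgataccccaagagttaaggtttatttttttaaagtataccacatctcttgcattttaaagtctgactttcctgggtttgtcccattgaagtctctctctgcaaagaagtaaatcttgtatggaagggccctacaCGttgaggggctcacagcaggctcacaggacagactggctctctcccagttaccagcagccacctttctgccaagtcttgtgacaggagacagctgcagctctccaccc
Cox7a1: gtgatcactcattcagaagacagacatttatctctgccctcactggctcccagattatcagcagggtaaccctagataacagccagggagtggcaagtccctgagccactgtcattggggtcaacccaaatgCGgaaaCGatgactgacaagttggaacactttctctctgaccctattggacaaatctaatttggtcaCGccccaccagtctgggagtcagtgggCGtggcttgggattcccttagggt
Cox8a: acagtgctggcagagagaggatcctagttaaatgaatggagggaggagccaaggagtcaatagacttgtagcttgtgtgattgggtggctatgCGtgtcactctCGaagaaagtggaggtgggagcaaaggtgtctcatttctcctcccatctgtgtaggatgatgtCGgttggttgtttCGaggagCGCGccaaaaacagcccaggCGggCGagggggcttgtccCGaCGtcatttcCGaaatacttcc
Cox7a2: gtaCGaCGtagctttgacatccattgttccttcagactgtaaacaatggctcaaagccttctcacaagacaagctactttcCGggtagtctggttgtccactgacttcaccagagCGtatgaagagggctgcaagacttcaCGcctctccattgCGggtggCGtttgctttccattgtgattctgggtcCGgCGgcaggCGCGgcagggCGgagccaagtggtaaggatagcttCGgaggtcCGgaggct
Cox6a1: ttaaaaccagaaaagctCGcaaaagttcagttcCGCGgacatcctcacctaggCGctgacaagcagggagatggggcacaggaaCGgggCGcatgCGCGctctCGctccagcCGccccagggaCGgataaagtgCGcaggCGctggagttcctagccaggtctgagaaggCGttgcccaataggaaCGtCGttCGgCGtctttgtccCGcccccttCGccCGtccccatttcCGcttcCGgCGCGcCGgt

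The Cox8b window lies at chr7:140900447-140900696 on the minus strand and holds 1 CG, the fewest of the 71 promoters. The Cox7a1 window, at chr7:30183921-30184170 on the plus strand, holds 4. The Cox8a window at chr19:7217617-7217866, minus strand, holds 11 and the Cox7a2 window at chr9:79759854-79760103, minus strand, holds 14. The Cox6a1 window at chr5:115348959-115349208, minus strand, holds 26. Both muscle isoforms thus had fewer CG dinucleotides before the start than the 3 widely expressed genes. Over the 71 promoters the median was 14 CG dinucleotides and a GC content of 56.4%, against 6 and 52.0% over the 27025 genes of the table.

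Short factor motifs were searched as exact letters on both strands of these windows. Genes were counted, and a gene counted if any of its listed promoters held a match. The NRF1 core GCGCATGC was found in 9 of the 71 genes, 12.7%, against 2.56% of the 27025 genes of the promoter table. The ETS core CCGGAAG was found in 12, 16.9% against 7.83%. The YY1 core AAGATGG was found in 1, 1.41% against 5.18%, the TATA box letters TATAAA in 7, 9.86% against 14.3%, and the E-box CAGCTG in 6, 8.45% against 14.7%. In the printed Cox6a1 window, counted back from -1 beside the start, an NRF1 core begins at -162 on one strand and an overlapping one on the other strand at -160, and an ETS core begins at -16. In the Cox8b window the only match was CAGCTG at -19. A match describes letters and not binding.

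Most members were among the most abundant transcripts of these brains. The median rank by mean FPKM of the 87 tested members was 478 of 12229, and 72 stood among the 1222 most abundant genes. Atp5b, the catalytic beta subunit of ATP synthase, was the most abundant, at 731.9 FPKM over all 6 libraries, and Cox4i1, the main form of complex IV subunit IV, had 709.7 FPKM. FPKM within a complex differed widely although the proteins are assembled in fixed proportions. In complex III it ran between 71.49 for Uqcrq and 288.5 for Uqcrh. Reads differed less, at 3881 to 4739 per library for Uqcrq and 5419 to 6704 for Uqcrh. The recovered lengths were 1525 and 546 bases, so the gap depends on the lengths used. Whether those lengths match the transcripts made in these brains was not tested. A group of 10 members was low, at under 10 FPKM: the complex IV isoforms Cox4i2, Cox6a2, Cox6b2, Cox7a1, Cox7b2 and Cox8b, the Ndufa4 relative Ndufa4l2, and Ndufb4b, Ndufb4c and Ndufs6b. The symbols of Ndufb4b, Ndufb4c and Ndufs6b mark near copies of other subunit genes, so their reads may be shared with those genes and their values are uncertain.

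**Figure D1:**
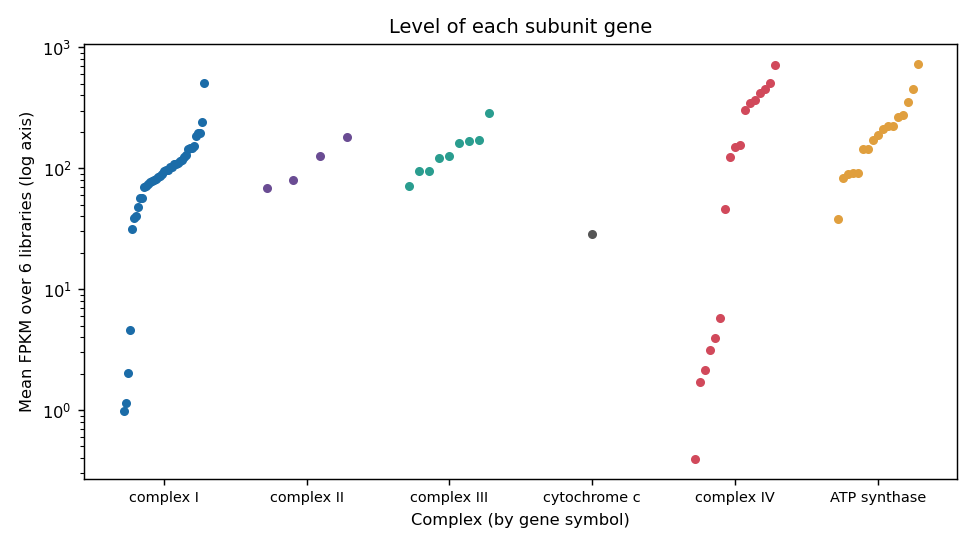
Mean FPKM over the 6 libraries (log axis) of each of the 89 subunit genes, grouped by complex. Levels reach 731.9 FPKM in ATP synthase and 709.7 FPKM in complex IV, and low isoforms form a tail in complexes I and IV.

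PS and Control brains did not differ in any subunit gene beyond the spread between libraries after adjustment. Levels were compared by limma on log2(FPKM + 1), a scale that understates the change of low genes, and an adjusted p under 0.05 was required for a call. None of the 87 tested members was called, where 0.164% of all 12229 tested genes were, 20 genes that were all lower in PS. At an unadjusted p under 0.05 there were 3 of the 87 members, Cox8b, Cox4i2 and Cox7a1, all higher in PS. This was a smaller share than the 5.94% of all genes. limma-voom on the read numbers recovered from the FPKM steps called 0 members and 29 genes, and 0 members had an unadjusted p under 0.05 there, against 6.13% of all genes. A fit blocked on the replicate number called 48 genes, 0.393% of those tested, and 0 members. It put 5 of the 87 members at an unadjusted p under 0.05, again a smaller share than the 7.76% of all genes. Cox7b2 and Ndufb4c were too low to be tested.

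The data bound the size of a difference closely for the abundant members. The 79 genes with a mean over 10 FPKM had log2 fold changes between -0.08 and 0.13 with standard errors of 0.06 to 0.11. Their 95% intervals all lay between -0.25 and 0.34, folds of 0.841 to 1.27, and 67 lay wholly within 0.25 of 0. Of all 87 tested members, 70 were higher in PS and 17 lower, with a median log2 fold change of 0.03, against 6281 higher, 5948 lower and a median of 0.00 over all tested genes. That lean depended on single libraries. Without Control 2 the members' median was -0.04 and 14 of 87 were higher in PS. Without PS 2 the lean was weaker, with 20 higher and 20 lower in complex I and 4 and 5 in complex III. Complex IV then had 11 higher and 5 lower, and ATP synthase 11 and 6.

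**Figure D2:**
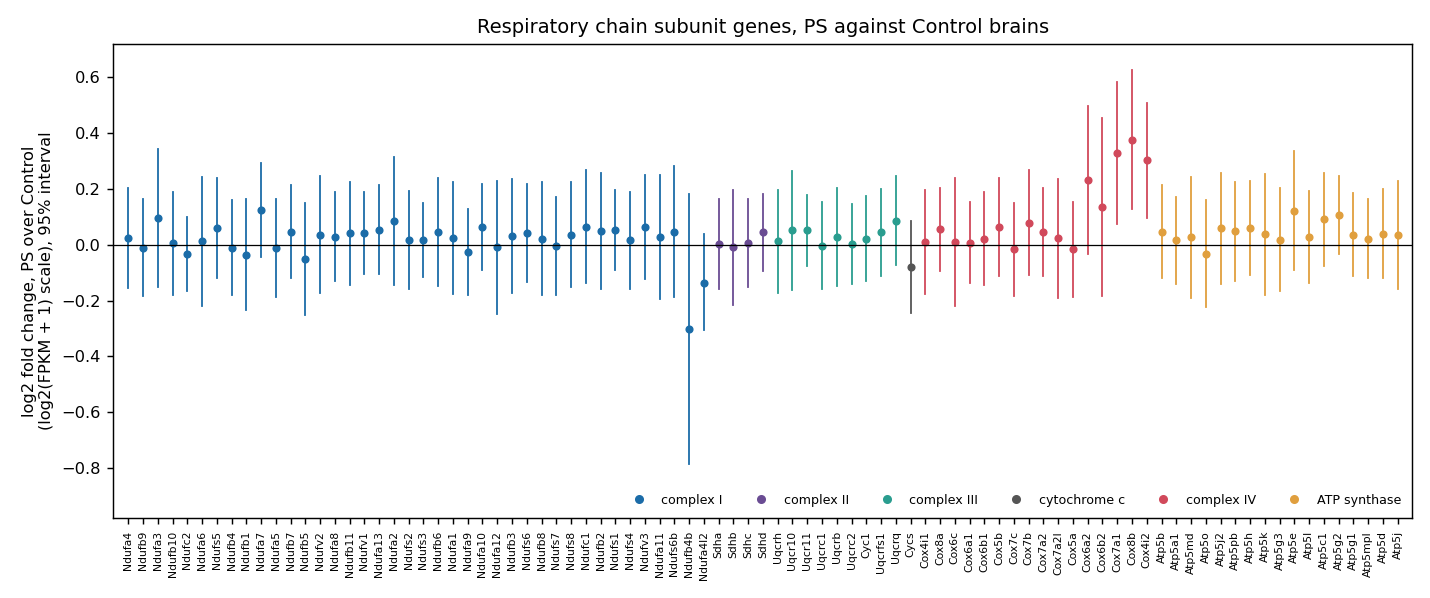
The log2 fold change of PS over Control brains with its 95% interval for the 87 tested subunit genes, coloured by complex and ordered by level within each complex. The abundant genes lie within -0.08 to 0.13, and the low isoforms at the right of complexes I and IV lie farther out.

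Complex I takes electrons from NADH. Its 40 tested genes had a median log2 fold change of 0.03, with 29 higher and 11 lower in PS. Without Control 2 the median was -0.05, with 1 higher and 39 lower. The 7 nuclear-encoded core subunits, which carry the flavin and iron-sulfur clusters, had log2 fold changes up to 0.05, with 6 higher and 1 lower. Ndufv1, which holds the flavin and binds NADH, had 100.4, 108.2 and 105.3 FPKM in PS brains and 104.2, 94.16 and 106.7 FPKM in Control brains. The groups overlapped, with Control 2 lowest. The 12 accessory genes of the Ndufa series, leaving out Ndufa4 and Ndufa4l2, had a median of 0.03, and 11 of the Ndufb series a median of 0.02.

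Ndufa7, an accessory subunit, had the largest log2 fold change among the abundant members. It measured 124.8, 137.0 and 140.3 FPKM in PS brains and 131.1, 112.4 and 125.2 FPKM in Control brains. PS 1 lay below Control 1 and Control 3, so the groups overlapped, and the log2 fold change was 0.13 ± 0.07 (SE; limma adjusted p = 0.916). Ndufa4, named for complex I and since placed in complex IV, was the most abundant of the series. It had 482.9, 545.2 and 502.7 FPKM in PS brains and 537.4, 459.3 and 511.0 FPKM in Control brains, a log2 fold change of 0.02. Ndufab1, the mitochondrial acyl carrier protein of complex I, falls outside the symbol rule and averaged 30.23 ± 1.47 FPKM in PS brains and 27.82 ± 3.15 FPKM in Control brains (SD, n = 3 each; limma adjusted p = 0.945).

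Complex II, the succinate dehydrogenase shared with the citric acid cycle, had a median log2 fold change of 0.005 with all 6 libraries. This was the smallest in size among the complexes. Sdha, its flavoprotein, had 179.5, 178.8 and 186.1 FPKM in PS brains and 185.5, 164.3 and 194.9 FPKM in Control brains. The means, 181.5 ± 4.02 and 181.6 ± 15.7 FPKM (SD, n = 3 each, PS and Control), lay far closer than the Control libraries did among themselves. Sdhb, the iron-sulfur subunit, had 117.6, 132.2 and 129.9 FPKM in PS brains and 132.2, 111.0 and 140.0 FPKM in Control brains. The membrane anchors Sdhc and Sdhd averaged 79.4 ± 3.05 and 69.91 ± 1.57 FPKM in PS brains, against 79.15 ± 6.52 and 67.78 ± 4.0 FPKM in Control brains (SD, n = 3 each). In all 4 genes Control 2 was the lowest library, and the log2 fold changes ran between -0.01 and 0.05. Without Control 2 the median of the 4 was -0.05, with 1 higher and 3 lower. It was then no longer the smallest in size, as complex IV was at 0.00 and ATP synthase at -0.02.

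Complex III hands electrons to cytochrome c, and 8 of its 9 genes were higher in PS with a median log2 fold change of 0.03. Control 2 was the lowest library for all 9, and without it 2 were higher and 7 lower, with a median of -0.04. Cyc1, the cytochrome c1 subunit, had 92.88, 99.93 and 95.67 FPKM in PS brains and 92.96, 89.0 and 102.4 FPKM in Control brains. Uqcrh, the hinge protein that contacts cytochrome c1, had 279.9, 294.8 and 292.8 FPKM in PS brains and 309.3, 252.9 and 301.0 FPKM in Control brains. In both genes all 3 PS values lay inside the Control range. Uqcrq, a small ubiquinone-binding subunit, had the lowest unadjusted p of the complex, with 67.66, 77.04 and 76.41 FPKM in PS brains and 71.81, 64.86 and 71.18 FPKM in Control brains. Its log2 fold change was 0.09 ± 0.07 (SE; limma adjusted p = 0.96).

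Cytochrome c, the mobile electron carrier, was one of the few members lower in PS. Cycs had 26.44, 29.51 and 26.63 FPKM in PS brains and 30.41, 26.66 and 30.35 FPKM in Control brains. PS 2 overlapped the Control values and Control 2 lay beside PS 1 and PS 3. The log2 fold change was -0.08 ± 0.07 (SE; limma adjusted p = 0.975), and -0.14 without Control 2.

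Complex IV reduces oxygen, and its 10 widely expressed genes, from Cox4i1 to Cox8a, had a median log2 fold change of 0.02 and a range of -0.02 to 0.08. Over all 16 tested genes of the complex the median was 0.05, with 14 higher and 2 lower, and without Control 2 it was 0.00, with 6 higher and 10 lower. Cox4i1 had 667.5, 717.1 and 751.0 FPKM in PS brains and 749.3, 637.9 and 735.5 FPKM in Control brains. Cox6a1 had 394.4, 424.6 and 442.4 FPKM in PS brains and 415.8, 413.1 and 424.8 FPKM in Control brains. Cox8a, a small membrane subunit, had 492.2, 523.6 and 545.2 FPKM in PS brains and 503.8, 480.0 and 517.4 FPKM in Control brains. In each of these the groups overlapped, with PS 1 the lowest PS library. Cox6b1, at the face that meets cytochrome c, averaged 367.9 ± 19.4 FPKM in PS brains and 362.5 ± 26.5 FPKM in Control brains (SD, n = 3 each). Cox7a2 averaged 153.2 ± 9.63 FPKM in PS brains and 148.3 ± 8.75 FPKM in Control brains, and Cox7a2l, a supercomplex assembly factor related to it, 125.1 ± 9.58 and 123.4 ± 14.6 FPKM (SD, n = 3 each, PS and Control).

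In ATP synthase 16 of 17 genes were higher in PS, by a median log2 fold change of 0.04, and Control 2 was the lowest library in all 17. Without Control 2 the median was -0.02, with 4 higher and 13 lower. Atp5b had 718.8, 762.8 and 748.1 FPKM in PS brains and 752.6, 658.4 and 751.0 FPKM in Control brains. Atp5e, the small epsilon subunit of the F1 head, had 161.0, 187.6 and 188.0 FPKM in PS brains and 181.6, 145.5 and 166.6 FPKM in Control brains, a log2 fold change of 0.12 ± 0.09 (SE; limma adjusted p = 0.951). The 5 genes of the F1 head had log2 fold changes between 0.02 and 0.12. The c ring, the rotor that protons turn, is encoded by Atp5g1, Atp5g2 and Atp5g3, which give the same mature protein. Atp5g2 had the lowest unadjusted p of the complex, with 89.03, 96.26 and 100.3 FPKM in PS brains and 87.88, 86.26 and 90.44 FPKM in Control brains. PS 1 lay inside the Control range and the log2 fold change was 0.11 ± 0.06 (SE; limma adjusted p = 0.899). The 4 genes of the peripheral stalk had a median of 0.04.

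Across complexes the members moved together from library to library rather than by group. For each gene the deviation of log2(FPKM + 1) from its mean over the 6 libraries was taken. The median deviation of the 87 members was -0.06, 0.07 and 0.03 in PS 1, PS 2 and PS 3, and 0.04, -0.15 and 0.06 in Control 1, Control 2 and Control 3. PS 1 and Control 2 were low and the other 4 libraries high, with the same signs in complexes I to IV and ATP synthase taken singly. Control 2 was the lowest library for 79 of the 87 members, 90.8%, against 30.0% of all tested genes. Over the 79 members with a mean over 10 FPKM, the median coefficient of variation was 5.39% among PS libraries and 8.63% among Control libraries. Summed over all members, the level was 12839, 14046 and 13856 FPKM in PS brains and 13918, 12092 and 13973 FPKM in Control brains.

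**Figure D3:**
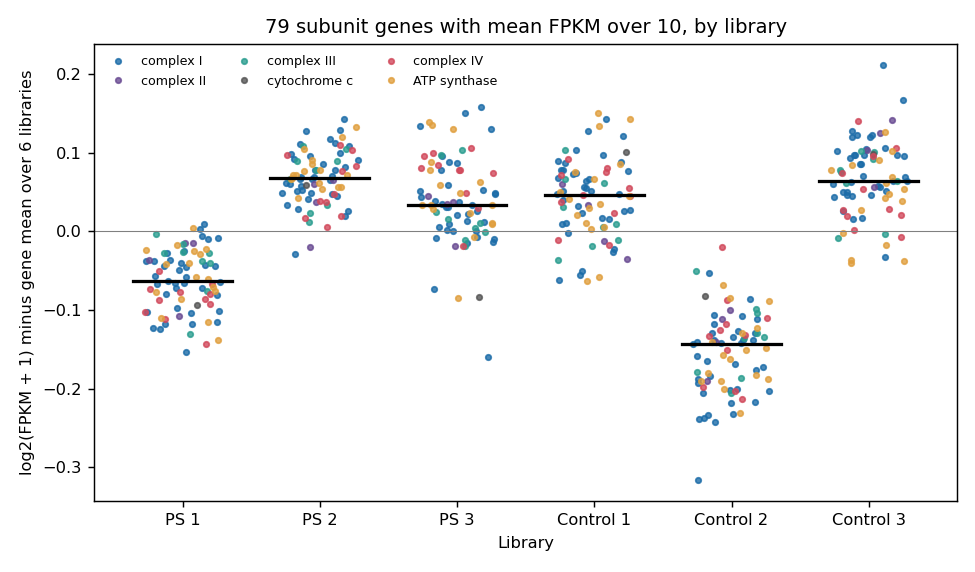
Deviation of log2(FPKM + 1) from the gene's mean over the 6 libraries, 1 point for each of the 79 subunit genes with a mean over 10 FPKM, with the median of the library as a bar. PS 1 and Control 2 lie below 0 and the other libraries above it for most genes.

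Gene length moved with this pattern. Members are short, with a median recovered length of 764 bases against 3684 over all tested genes, and 74 of the 87 lay in the shortest sixth of genes, 105 to 1718 bases. All genes of that sixth had median deviations of -0.05, 0.05 and 0.03 in PS libraries 1 to 3 and 0.01, -0.11 and 0.07 in Control libraries 1 to 3. The longest sixth, 7460 to 59479 bases, had the opposite signs in 5 of the 6 libraries, with 0.03, -0.03 and -0.02 in PS and 0.01, 0.07 and -0.07 in Control. Cytosolic ribosomal protein genes, which are also short and abundant, had -0.13, 0.05 and 0.09 in PS and 0.05, -0.11 and 0.06 in Control over 81 genes. Control 2 was the lowest library for 49.8% of the shortest sixth and for 43.2% of the ribosomal protein genes. Once a smooth trend on length was removed within each library, the members' medians were 0.01, 0.02 and 0.00 in PS and 0.03, -0.04 and 0.00 in Control. Control 2 was then lowest for 40 members, 46.0%, against 25.8% of all tested genes. The members' median log2 fold change was then 0.01.

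**Figure D4:**
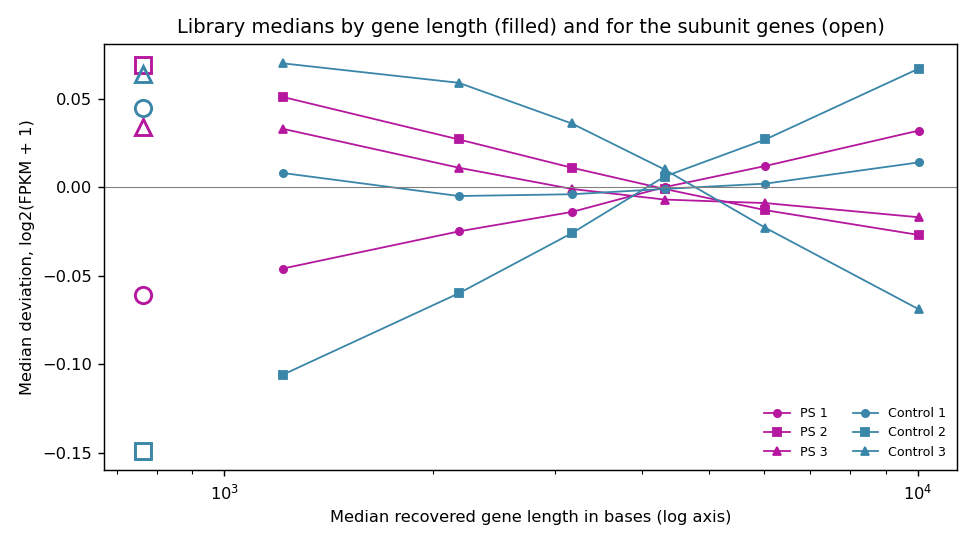
Median deviation of log2(FPKM + 1) per library in sixths of all tested genes by recovered length (filled, log axis), with the 87 subunit genes as open symbols at their median length of 764 bases. Control 2 and PS 1 slope upward with length and PS 2, PS 3 and Control 3 downward, and the subunit genes extend the short end.

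Cell type markers also differed in Control 2, in several lists. All 10 oligodendrocyte and myelin markers were lowest in that library, with a median deviation of -0.44. Their medians were 0.14, 0.08 and 0.19 in PS 1 to 3 and -0.10 and 0.11 in Control 1 and 3. All 10 were also higher in PS, with a median log2 fold change of 0.26, or 0.11 without Control 2. Of 7 oligodendrocyte precursor markers 6 were higher in PS and 1 lower, with a median of 0.28, or 0.31 without Control 2. With all 6 libraries none of either list was called. The 10 neuron markers had median deviations of 0.01, 0.02 and -0.03 in PS libraries and -0.03, 0.12 and -0.03 in Control libraries. In Control 2 the median deviation was -0.51 for choroid plexus and ependyma markers, -0.23 for oligodendrocyte precursor and -0.14 for astrocyte markers. It was 0.72 there for red cell, 0.20 for endothelial, 0.08 for pericyte and smooth muscle and 0.01 for microglia markers. Red cell markers were at 0.72 in Control 1 as well and at 0.20 in Control 3. In PS 1 to 3 they were at -0.84, -0.67 and -0.21, and all 5 were lower in PS. Endothelial markers were at 0.09 and 0.05 in Control 1 and 3 and at -0.09, -0.07 and -0.10 in PS 1 to 3. Of these 9 markers, 8 were lower in PS and 1 higher. The part of gene length and of cell make-up in the members' values was not tested.

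The 3 of 87 members with an unadjusted p under 0.05, a smaller share than the 5.94% of all tested genes, were all low complex IV isoforms. All 5 tested ones, Cox4i2, Cox6a2, Cox6b2, Cox7a1 and Cox8b, were higher in PS, with a median log2 fold change of 0.30 and none called. Without Control 2, Cox6b2 was at -0.01 and the other 4 were higher. Cox8b had 2.82, 2.39 and 2.41 FPKM in PS brains and 2.08, 1.33 and 1.81 FPKM in Control brains, on 19 to 41 reads per library. Every PS value lay above every Control value, as for 4.93% of all tested genes. The log2 fold change was 0.38 ± 0.11 (SE; 95% interval 0.13 to 0.62; limma unadjusted p = 0.00754, adjusted p = 0.542).

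Cox4i2, the form of subunit IV typical of lung and of vascular pericytes in brain, had 1.82, 2.22 and 1.89 FPKM in PS brains and 1.56, 1.19 and 1.49 FPKM in Control brains. Again no PS value fell within the Control range, on 34 to 65 reads per library, and the log2 fold change was 0.30 ± 0.09 (SE; limma adjusted p = 0.565). Cox7a1 had 2.82, 4.15 and 3.91 FPKM in PS brains and 2.63, 2.49 and 2.85 FPKM in Control brains. PS 1 fell just below Control 3, and PS 2 and PS 3 were well above all Control values. The log2 fold change was 0.33 ± 0.11 (SE; limma adjusted p = 0.708) on 45 to 77 reads per library. With weights on the samples Cox7a1 was the 1 member called, at a limma adjusted p of 0.043. That fit called 632 genes, 5.17% of those tested. It put 8 of the 87 tested members at an unadjusted p under 0.05, a smaller share than the 25.7% of all genes.

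Cox6a2, the muscle form of subunit VIa, had 7.32, 6.55 and 5.27 FPKM in PS brains and 5.43, 5.84 and 4.52 FPKM in Control brains. PS 3 lay inside the Control range, and the log2 fold change was 0.23 ± 0.12 (SE; limma adjusted p = 0.865). Cox6b2, typical of testis, averaged 4.17 ± 0.639 FPKM in PS brains and 3.74 ± 0.903 FPKM in Control brains (SD, n = 3 each). Cox7b2, also known from testis, was listed at 0.274 to 0.46 FPKM in PS brains and 0.278 to 0.657 FPKM in Control brains.

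Ndufa4l2, a relative of Ndufa4 that is induced by low oxygen, went the other way. It had 0.997, 0.99 and 1.17 FPKM in PS brains and 1.20, 1.28 and 1.27 FPKM in Control brains, on 46 to 58 reads per library. Every PS value lay below every Control value, as for 6.33% of all tested genes, and the log2 fold change was -0.13 ± 0.08 (SE; limma adjusted p = 0.891). Ndufb4b had a larger log2 fold change, -0.30 ± 0.21 (SE; limma adjusted p = 0.946), but its libraries overlapped at 2.76, 1.58 and 0.902 FPKM in PS and 2.62, 2.38 and 1.82 FPKM in Control. With a pseudocount of 0.1 in place of 1, which compresses low genes less, the log2 fold changes were -0.23 for Ndufa4l2, -0.48 for Ndufb4b, 0.46 for Cox4i2, 0.54 for Cox8b and 0.42 for Cox7a1, with none called.

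For 5 pairs, a low isoform was also set against its abundant partner within a library, which cancels any factor the pair shares. Cox8b reached 0.573, 0.457 and 0.442% of Cox8a in PS brains and 0.413, 0.278 and 0.349% in Control brains. Cox4i2 reached 0.273, 0.309 and 0.252% of Cox4i1 in PS brains and 0.208, 0.187 and 0.203% in Control brains. Cox7a1 reached 1.98, 2.67 and 2.42% of Cox7a2 in PS brains and 1.69, 1.8 and 1.89% in Control brains. In these 3 pairs no PS ratio fell within the Control range, and the mean log2 ratio was higher in PS by 0.51, 0.48 and 0.38. The ratios were taken without a pseudocount, so these differences are not on the scale of the log2(FPKM + 1) fold changes. A larger value here is therefore no measure of what setting the isoform against its partner adds. Each had an exact two-sided permutation p of 0.1, the smallest that 3 against 3 libraries can give, and 0.167 after Benjamini-Hochberg adjustment over the 5 pairs. Cox6a2 averaged 1.53 ± 0.33% of Cox6a1 in PS brains and 1.26 ± 0.18% in Control brains (exact permutation p = 0.4, n = 3 each). Ndufa4l2 averaged 0.207 ± 0.026% of Ndufa4 in PS brains and 0.251 ± 0.028% in Control brains (exact permutation p = 0.2, n = 3 each), and those ranges overlapped.

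Of the skeletal muscle genes, 3 were high in 1 library, PS 1, which also had the highest Cox8b and Cox6a2. Ckm, the muscle creatine kinase, had 3.142, 0.035 and 0.212 FPKM in PS brains and 0.089, 0.198 and 0 FPKM in Control brains. Tnnt3, fast muscle troponin T, had 3.013, 0.042 and 0.171 FPKM in PS brains and 0.237, 0.349 and 0.216 FPKM in Control brains, and Mb, myoglobin, had 1.716 FPKM in PS 1 and at most 0.242 FPKM elsewhere. These 3 were chosen for display after their values were seen. Of the whole list of 10 skeletal and heart muscle markers, 2 passed the filter on low values, and none was at 0 in every library. Of the 2 that passed, 1 was highest and 1 was lowest in PS 1. The summed level of the list was 20.36, 7.27 and 6.71 FPKM in PS brains and 5.84, 7.67 and 6.88 FPKM in Control brains. Without PS 1 the log2 fold change was 0.32 for Cox8b, 0.34 for Cox4i2 and 0.46 for Cox7a1, and 0.14 for Cox6a2. Without Control 2 it was 0.27 for Cox8b, 0.23 for Cox4i2, 0.30 for Cox7a1 and 0.30 for Cox6a2. Cox7a1 was lowest in PS 1 among the PS libraries. The part of muscle RNA in these values was not tested. The summed level of 9 pericyte and smooth muscle markers was 61.72, 73.92 and 61.3 FPKM in PS brains and 61.45, 69.66 and 65.7 FPKM in Control brains, with 3 of 8 tested markers higher and 5 lower, and their part was not tested either.

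**Figure D5:**
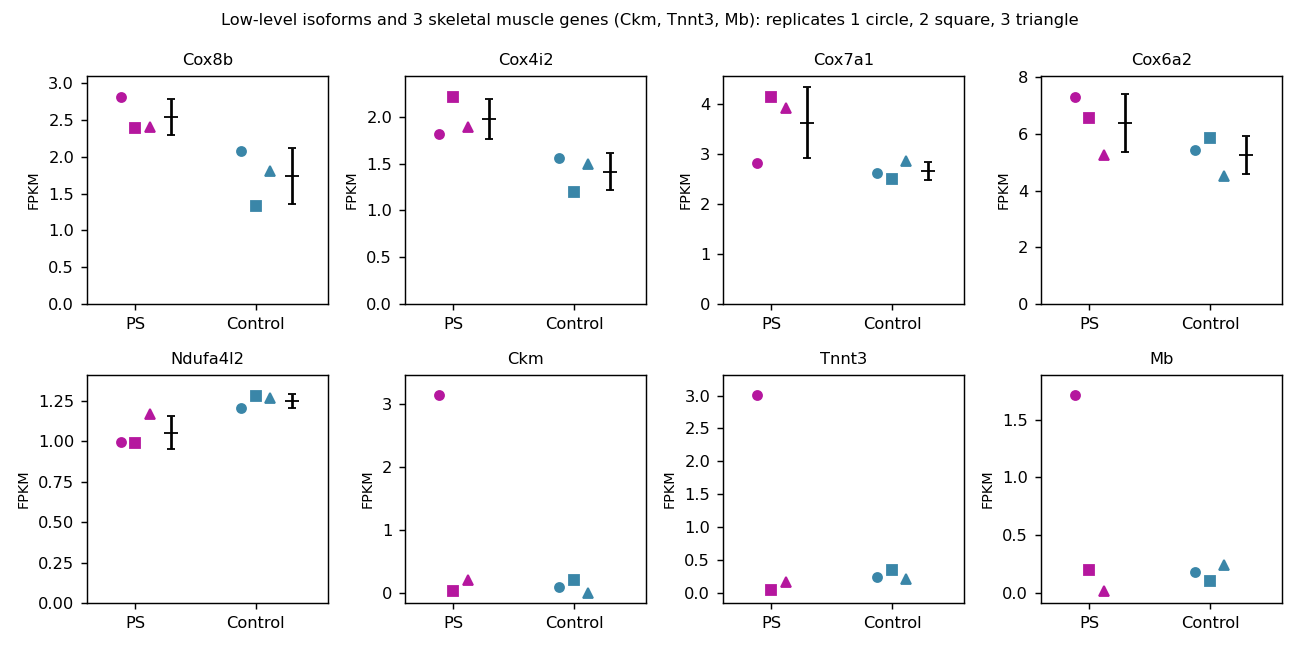
FPKM of 5 low isoform genes and 3 skeletal muscle genes in PS (left) and Control (right) libraries, with mean ± SD beside the isoform genes. Cox8b, Cox4i2 and Ndufa4l2 do not overlap between groups, and the 3 muscle genes are high in PS 1 alone.

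The proteins that build and feed the chain were read from lists chosen by function, and none of their genes was called. Complex I assembly factors had 11 higher and 6 lower of 17, with a median log2 fold change of 0.04, and without Control 2 had 7 higher and 10 lower, with a median of -0.02. Dmac1, a complex I assembly factor of the membrane arm, had 22.01, 27.17 and 25.02 FPKM in PS brains and 21.06, 22.73 and 20.61 FPKM in Control brains (log2 fold change 0.19, limma adjusted p = 0.824). Complex II factors had 3 higher and 1 lower of 4 with a median of 0.12, and complex III factors 5 higher and 1 lower of 6 with a median of 0.04. Without Control 2 these medians were 0.08 and -0.01. Complex IV assembly factors leaned the other way, with 7 higher and 14 lower of 21 and a median of -0.02, or -0.05 without Control 2. ATP synthase assembly factors had 4 higher and 2 lower of 6 with a median of 0.11, or 0.02 without Control 2. Among them Dmac2l, also known as coupling factor B, had 6.849, 6.547 and 5.969 FPKM in PS brains and 4.99, 4.592 and 6.281 FPKM in Control brains (log2 fold change 0.25, limma adjusted p = 0.801).

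The citric acid cycle and pyruvate dehydrogenase, which supply NADH and succinate, had 13 higher and 5 lower of 18 genes and a median log2 fold change of 0.02. Control 2 was the lowest library for 16 of them, and without it 2 were higher and 16 lower, with a median of -0.03. Ogdh, the first subunit of 2-oxoglutarate dehydrogenase, averaged 43.8 ± 1.06 FPKM in PS brains and 40.35 ± 2.48 FPKM in Control brains (SD, n = 3 each; limma adjusted p = 0.868), a log2 fold change of 0.12, or 0.07 without Control 2. Regulators of mitochondrial biogenesis had 6 higher and 10 lower of 16, with a median of -0.01, or -0.02 without Control 2. Polrmt, the RNA polymerase that transcribes mitochondrial DNA, had 5.786, 5.717 and 6.4 FPKM in PS brains and 7.582, 7.138 and 6.618 FPKM in Control brains. No PS value reached the Control range, as for the 6.33% of all tested genes that were wholly lower in PS. The log2 fold change was -0.22 ± 0.07 (SE; limma adjusted p = 0.668). Pprc1, a coactivator related to PGC-1alpha, had 2.607, 2.628 and 2.308 FPKM in PS brains and 3.271, 3.657 and 2.641 FPKM in Control brains. The groups did not overlap, but only by 2.628 against 2.641 FPKM (log2 fold change -0.25, limma adjusted p = 0.791). Polrmt and Pprc1 were the 2 genes of lowest unadjusted p among the 16. Mitochondrial carriers and other abundant mitochondrial proteins had 6 higher and 7 lower of 13, and 1 higher and 12 lower without Control 2.

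The 13 subunits encoded in mitochondrial DNA, the partners of these proteins, had 1 gene higher and 12 lower in PS, with a median log2 fold change of -0.18 and none called. Control 3 was the highest library for 11 of them, and without it 2 were higher and 11 lower, with a median of -0.11. ATP6, a proton channel subunit of ATP synthase, had 89.32, 57.52 and 64.0 FPKM in PS brains and 143.8, 124.5 and 126.6 FPKM in Control brains (limma adjusted p = 0.0626, and 0.00164 with the replicate number as a block). Its mean over the 6 libraries was 100.9 FPKM, far below 12680 for COX1, 7388 for ND1 and 7165 for CYTB. The log2 fold change was -0.92 for ATP6, against -0.11 for COX1, -0.18 for ND1 and -0.17 for CYTB. COX2 and COX3, at 101.9 and 98.6 FPKM, had -0.65 and 0.05. The cause of these low levels was not tested.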

How the data were processed

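RNA sequencing of 6 whole-brain libraries was used, 3 PS and 3 Control, grouped from their labels. The authors deposited 1 FPKM table per library. The submitters' processing notes name fastp, HISAT2, HTSeq, R 3.2.0 and the build GRCm39, with no role, order or strand setting. Reads of overlapping or antisense genes and of near copies may therefore be mixed.

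FPKM values moved in whole steps. Totals and lengths that give whole reads were found for 99.92% of the 26556 genes above 0, within 0.02 reads. A recovered length is the smallest that fits and may be a fraction of the true one. Replicate error, not depth, was tested. A mean FPKM of 1 or more was required (12229 genes kept, 15149 removed). log2(FPKM + 1) was compared with limma 3.58.1 in R 4.3.3, group only, variance trend, two-sided, Benjamini-Hochberg over all tested genes, 4 residual degrees of freedom. The fit was tested on simulated data. Isoform ratios used exact permutation tests (SciPy 1.17.1).

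The fit was repeated with other pseudocounts, filters on low values and rescalings, without the variance trend, with sample weights, by voom, without each library, and blocked on the replicate number. Removing a lowess trend on length, and leaving libraries out of the list counts, were chosen after seeing the data. Over all tested genes same-numbered libraries deviated together (correlations of 0.181, 0.185 and 0.161). A fit blocked on the number was therefore run beside the reported one, which has group only. This pairing comes from the data, not from the labels. The members' median deviations did not follow it, with -0.06 in PS 1 against 0.04 in Control 1 and 0.07 in PS 2 against -0.15 in Control 2. Only PS 3 and Control 3 shared a sign, at 0.03 and 0.06. Members, lists and tests were chosen with earlier results of these data known. Per-library values are given for the most abundant and lowest-p members of each complex, Sdh genes, Cyc1, Cycs, the isoform genes and the 10 members of lowest p, with examples of other members and lists. Ndufv1, Ckm, Tnnt3 and Mb were added after seeing values. Cox8c and Atp5if1 matched no symbol used here. Promoters came from RefSeq, GRCm38.p6.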

Additional observations from a re-analysis of the deposited data

How the results depend on the processing

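Of the 89 subunit genes 0 were called in the fit reported and 0 under each alternative, except sample weights, which called 1 (Cox7a1, log2 fold change 0.36). The count of all called genes was 20, and moved to 1 with no filter on low values, 9 at a mean FPKM of at least 5, 632 with sample weights and 48 with the replicate number as a block. Leaving out 1 library gave 0 to 66 genes (0 without PS 2, 2 without PS 1, 2 without Control 1 and 66 without Control 3) and 0 members each time. The members' median log2 fold change ran between -0.038 and 0.078 when 1 library was left out, and was -0.005 with sample weights. By complex it ran between -0.051 and 0.079 for complex I, -0.038 and 0.073 for complex III and -0.019 and 0.086 for ATP synthase. The block changed no other call of a subunit gene. ATP6 was called with the block, with sample weights, by voom and without PS 1 (log2 fold change -0.92, -1.06, -0.93 and -1.10). Its mean level of 100.9 FPKM was far below the 12680 FPKM of COX1. Sample weights also called Polrmt (-0.28), Pprc1 (-0.28) and Dmac2l (0.29).

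Signs of abundant genes near 0 turned. Under quantile normalization they were -0.04 for Cox6a1 and -0.01 for Ndufa4, Sdha and Sdhc. After rescaling without mitochondrially encoded genes they were -0.003 for Cox6a1 and Sdhc and -0.01 for Sdha. With sample weights they were -0.005 for Atp5b, -0.05 for Cox4i1, -0.04 for Cox6b1, -0.003 for Cox7a2, -0.06 for Ndufa4, -0.02 for Sdha and -0.08 for Uqcrh. With the length trend removed they were -0.02 for Cox4i1, Cox6a1 and Uqcrh and -0.01 for Cox6b1, Ndufa4 and Sdhc. With 1 library left out, 13 named members turned. The ranges were -0.02 to 0.08 for Atp5b, -0.06 to 0.06 for Cox4i1, -0.03 to 0.05 for Cox6a1, -0.04 to 0.06 for Cox6b1, -0.01 to 0.27 for Cox6b2, -0.002 to 0.10 for Cox7a2 and -0.07 to 0.10 for Cox7a2l. They were -0.02 to 0.08 for Cyc1, -0.04 to 0.07 for Ndufa4, -0.07 to 0.06 for Sdha, -0.11 to 0.06 for Sdhb, -0.04 to 0.07 for Sdhc and -0.08 to 0.07 for Uqcrh. The cause was not tested. Cox8b, Cox4i2, Cox7a1 and Cox6a2 kept their sign in every alternative in which they were tested. For Cox8b and Cox4i2 every PS value lay above every Control value, so leaving out 1 library could not turn their sign. Cox8b, Cox4i2 and Cox7a1 rest on 19 to 77 reads a library.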
